A study of Homo sapiens with 5 samples.

Results

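Short pieces of alpha-satellite DNA, those whose row in the deposited table spans less than 1000 bp and does not lie on the Y chromosome, numbered 206 of the 1559 regions. They were divided by position alone. The 100 dispersed copies lie more than 1 Mb from any row of 100 kb or longer on their chromosome, and the other 106, called array flanks, lie within that distance. Cells had been fed 5-ethynyl uridine (EU), which enters RNA as it is made, so that new RNA could be tagged with biotin, captured and sequenced. The cells were RPE1, an immortalised human line from retinal pigment epithelium labelled WT in all 5 groups, either asynchronous or synchronized in G1, S, G2 or M phase. About 2000000 cells were labelled for each library, and each group had 1 library. Without replicates every ratio below is one between 2 single libraries, and the spread within a stage is unknown. The libraries held between 27848516 reads (G1) and 49371478 reads (G2). Values for the 5 libraries are listed throughout in the order asynchronous, G1, S, G2, M, unless the stage is named. Of the library reads, between 246 (G1) and 543 (G2) reads fell in the 206 short regions.

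Alpha satellite is a repeat of short, related units called monomers. In the centromere the monomers are stacked into higher-order repeats that are copied many times over, and CENP-A chromatin and the kinetochore form on part of these arrays. Older, diverged monomers lie at the edges of the arrays, and isolated pieces are found on chromosome arms, where unique DNA or genes surround them. RNA read through an isolated piece can thus belong to a longer transcript of its surroundings, whereas RNA of an array comes from the repeat itself.

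Nearly all reads placed in the short regions lay in dispersed copies. How reads that map to several places were treated was not given in the sources used here. The counts are therefore of reads as placed, and the part of this treatment was not tested. Over the 5 libraries the 100 dispersed copies had 1771 reads on 34.6 kb, and the 106 array flanks had 14 reads on 57.6 kb. In reads per 1000000 library reads (RPM), the dispersed copies stood at 9.07 in the asynchronous library (95% interval 8.05 to 10.2). The stage libraries were at 8.73 for G1 (7.66 to 9.89), 10.7 for S (9.70 to 11.8), 10.9 for G2 (9.96 to 11.8) and 9.16 for M (8.15 to 10.3). These are exact Poisson intervals on the reads. Reads amplified by PCR carry no molecular identifiers here and are not independent molecules, so all intervals cover counting error alone. The array flanks had 0 reads in asynchronous cells and in S. The level of 3 reads, given beside a count of 0, was 0.0945 and 0.0788 RPM, and the exact intervals reached 0.116 and 0.0969 RPM. They had 3 reads in G1, 7 in G2 and 4 in M, or 0.108, 0.142 and 0.124 RPM. The interval of the ratio of G2 to asynchronous cells began at 0.927 and had no upper bound, so a difference between these 2 libraries was not detectable. For G2 to S, 7 reads against 0, the interval began at 1.11. It began at 0.413 when reads were divided by 2, as would be proper if both mates of each pair had been counted. The reads of the flanks were spread over 8 regions on 8 chromosomes, none with more than 4 in all.

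Among the dispersed copies, reads lay in those that stood alone. A copy was called solitary when no other row of the table was within 10 kb, a split chosen after the values were seen. Of the 46 solitary copies 18 had a read in at least 1 library (39.1%, exact 95% interval 25.1% to 54.6%), and together they held 1764 reads. Of the 54 clustered copies 3 had a read (5.56%, 1.16% to 15.4%), with 7 reads in all. A bound of 100 kb gave the same counts, and at 1 kb 59 solitary copies held the same 1764 reads. At 1 Mb the solitary copies numbered 39 and held 1240 reads, because 2 copies with reads described below have a nearer neighbour: that on chromosome 4 (499 reads, neighbour at 424 kb) and the 124 bp copy on chromosome 2 (25 reads, neighbour at 640 kb). The array flanks, of which 8 of 106 had a read (7.55%, 3.31% to 14.3%), had a share like that of the clustered copies. All 100 dispersed copies together had a share of 21%. Of the 1321 rows of 1 kb or longer 421 had a read (31.9%), and of the 201 of them beyond 1 Mb from an array 48 did (23.9%). The interval of the solitary copies held the 31.9%, so their share stood out beside clustered copies and flanks but not beside all longer rows. Copies of 1 cluster share their surroundings and are not independent of each other.

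The clustered copies and the solitary copies also differed in length, so that length and isolation cannot be told apart over the whole set. The median was 144.5 bp for solitary copies, 524 bp for clustered copies and 609.5 bp for array flanks. The contrast was seen up to 350 bp, and above it the 4 solitary copies were too few to show whether it held. Up to 100 bp 4 of 12 solitary copies had reads, against 0 of 6 clustered copies and 0 of 8 flanks. Between 101 and 200 bp 8 of 21 solitary copies had reads, against 0 of 10 clustered copies and 1 of 10 flanks, and between 201 and 350 bp the counts were 6 of 9, 0 of 8 and 1 of 15. Above 350 bp 0 of 4 solitary copies had reads, against 3 of 30 clustered copies and 6 of 73 flanks. A recurring length of 765 to 775 bp was found in 10 dispersed copies on chromosomes 13, 14, 15 and 22 and in 16 flanks on 5 chromosomes. All 26 were clustered, and they had 0 reads in every library. With reads in 10% of clustered copies and 8.22% of flanks above 350 bp, 26 rows are too few to set this length apart. By orientation in the table, reads lay in 12 of 26 solitary copies on the plus strand and in 6 of 20 on the complement strand. Among clustered copies the counts went the other way, at 0 of 28 and 3 of 26. Over all dispersed copies the shares were alike, at 12 of 54 (22.2%) and 9 of 46 (19.6%). The solitary plus copies held 1568 reads, most of them in the 2 leading copies, and the solitary complement copies 196.

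**Figure D1:**
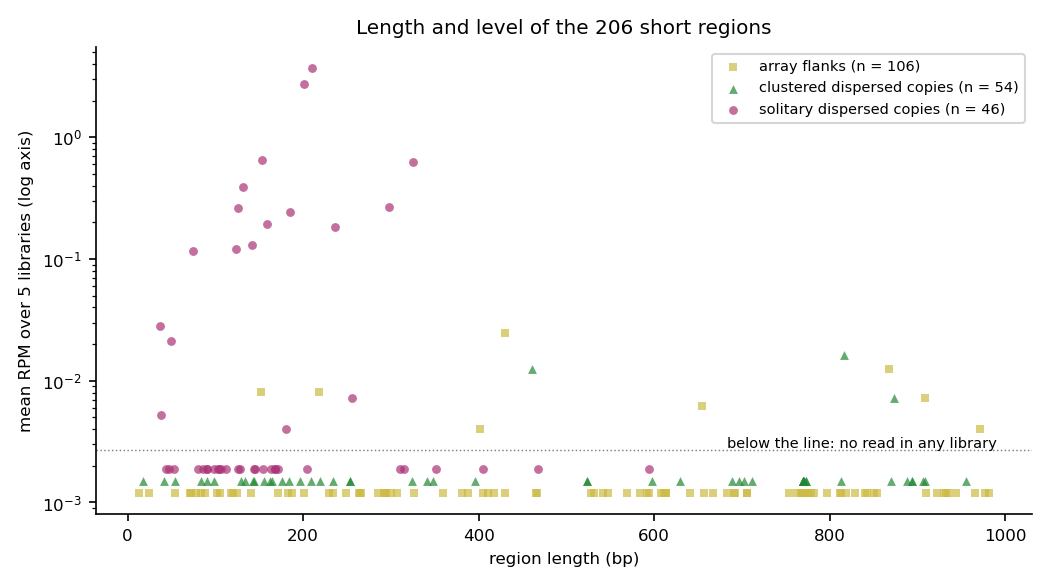
Region length in bp (horizontal axis) and mean RPM over the 5 libraries (vertical log axis) of the 206 short regions; each point is 1 region, and points below the dotted line had no read in any library. The points above 0.1 RPM are solitary dispersed copies of 75 to 325 bp, whereas the array flanks and clustered copies with reads lie below 0.03 RPM.

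Per length, the dispersed copies were denser in reads than the longer rows. All 100 held 0.281 RPM per kb, the unit of RPKM, and the solitary ones more. Averaged over the libraries the 46 solitary copies held 9.67 RPM on 7.96 kb, or 1.21 RPM per kb. The 1321 rows of 1 kb or longer, which hold the centromeric arrays, stood at 0.00313 and the 201 of them beyond 1 Mb from an array at 0.00540. The array flanks were at 0.00130 and the clustered copies at 0.00134, both below the longer rows. In RPKM all dispersed copies were thus 89.6-fold, and the solitary copies 388-fold, above the longer rows. The unknown treatment of multiply mapping reads applies to these folds as well, and its part in them was not tested. A read of 150 nt that overlaps a short region by a single base may be counted in it, and the authors' rule for overlaps was not given in the sources used here. Raising each length by 149 bp to allow for this gave a fold of 62.8 for all dispersed copies and 209 for the solitary ones. For the solitary copies without the 2 leading ones it was 138, or 73.8 with the raised length. Longer rows that stood alone were dense as well. Of the 8 dispersed rows of 1 kb or longer with no other row within 10 kb 4 had reads, 942 in all with 367 in 1 row, and they stood at 0.123 RPM per kb. The solitary short copies were 9.91-fold above these 8 rows, or 5.47-fold with the raised length, and 3.52-fold and 1.93-fold without the 2 leading copies. Of the 20 rows with the highest mean RPKM among the 1527 rows off the Y chromosome, 15 were dispersed short copies. This ranking used the plain length, by which few reads can place a very short row high. The 15 include a copy of 37 bp with 6 reads in all and one of 50 bp with 4.

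A few copies carried this signal. The leading 2 held 66.1% of the mean RPM of the dispersed copies and the leading 13 held 99.0%. Beyond these 13, the other 87 copies had 0, 2, 8, 8 and 2 reads. Positions are given on T2T-CHM13, as deposited.

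The leading copy lies on chromosome 15 (57021870 to 57022080, 210 bp, plus orientation), 39.3 Mb from the nearest array row. It had 93, 109, 163, 173 and 123 reads, or 2.93, 3.91, 4.28, 3.50 and 3.81 RPM. All 4 stage libraries stood above the asynchronous one, within a narrow band. The ratio to asynchronous cells was 1.46 in S (exact conditional 95% interval 1.13 to 1.91) and 1.34 in G1 (1.004 to 1.78), while the intervals of G2 at 1.20 (0.925 to 1.56) and M at 1.30 (0.985 to 1.72) held 1. If both mates of each pair had been counted, dividing reads by 2 would give the proper interval; then that of G1 also held 1 (0.887 to 2.02), and that of S began at 1.01.

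The second copy lies on chromosome 4 (7897982 to 7898183, 201 bp, plus orientation). It had 57, 82, 112, 160 and 88 reads, or 1.79, 2.94, 2.94, 3.24 and 2.72 RPM. The asynchronous library was again the lowest. Relative to it G1 was at 1.64 (1.16 to 2.34), S at 1.64 (1.18 to 2.30), G2 at 1.81 (1.33 to 2.49) and M at 1.52 (1.08 to 2.16), and with reads divided by 2 the intervals of G1 and M held 1. All of these ratios share 1 asynchronous library, so 4 stages on one side of it are not 4 separate results. Set against each other without the asynchronous library, the 2 copies together stood at 6.86, 7.22, 6.74 and 6.53 RPM in the G1, S, G2 and M libraries. Their ratios from stage to stage were 1.05 for S to G1 (0.872 to 1.27), 0.934 for G2 to S (0.794 to 1.10), 0.968 for M to G2 (0.811 to 1.154) and 1.05 for G1 to M (0.859 to 1.28). No step between stages was thus beyond counting error in these 2 copies.

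Of the 11 next copies 6 had their highest RPM in asynchronous cells, counting the copy on the X chromosome described last. One on chromosome 14 (46876735 to 46876888, 153 bp) had 37, 10, 24, 31 and 16 reads. Its levels were 1.16, 0.359, 0.630, 0.628 and 0.495 RPM, and the ratio was lowest in G1 at 0.308 (0.137 to 0.632). The longest of the leading copies, on chromosome 3 (102663109 to 102663434, 325 bp, complement orientation), had 35, 13, 23, 32 and 10 reads, or 1.10, 0.467, 0.604, 0.648 and 0.309 RPM. Its ratio was lowest in M, at 0.281 (0.124 to 0.579). In both copies S and G2 lay between these levels and the asynchronous one. On chromosome 2 (98345038 to 98345164, 126 bp) 16, 7, 10, 11 and 2 reads were found, and M was at 0.123 of asynchronous cells (0.0137 to 0.523). The copy on chromosome 6 at 57216789 to 57217087 (298 bp, complement orientation) had 15, 4, 6, 19 and 6 reads. Its ratio was 0.304 in G1 (0.0735 to 0.955) and 0.334 in S (0.106 to 0.910), whereas G2, at 0.815 (0.392 to 1.72), lay within counting error of asynchronous cells. With reads divided by 2 the G1 and S intervals held 1 as well (0.0312 to 1.56 and 0.0564 to 1.42). This copy is the one nearest to an array among those with reads, at 1.07 Mb, just beyond the bound. The copy on chromosome 5 (143840670 to 143840855, 185 bp) had 11, 4, 13, 13 and 4 reads. Its asynchronous and S levels were alike at 0.346 and 0.341 RPM, and every one of its intervals held 1.

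A further 5 copies had their highest level in S or G2. The second chromosome 6 copy (34403936 to 34404067, 131 bp) had 7, 6, 9, 37 and 17 reads, or 0.220, 0.215, 0.236, 0.749 and 0.526 RPM. The first 3 libraries were alike and G2 was 3.40-fold asynchronous cells (1.496 to 9.04, and 1.07 to 15.5 with reads divided by 2). The second chromosome 3 copy (189923082 to 189923318, 236 bp) had 1, 0, 8, 18 and 10 reads, with a ratio of 11.6 in G2 (1.83 to 482) that rests on a single asynchronous read. That interval began at 0.976 with reads divided by 2. The copy on chromosome 10 (17671715 to 17671874, 159 bp) had 3, 0, 16, 7 and 10 reads, with S at 4.45 (1.27 to 23.8), and with reads divided by 2 that interval held 1. On chromosome 2 at 32262456 to 32262580 (124 bp) 4, 0, 5, 14 and 2 reads were found, highest in G2 at 2.25 (0.707 to 9.39). The thirteenth copy, 75 bp on chromosome 20 (9204757 to 9204832), had 3, 5, 4, 10 and 0 reads. Beside the 0 in M stands the level of 3 reads, 0.0928 RPM, against 0.0945 RPM in asynchronous cells.

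The copy on the X chromosome (234007 to 234149, 142 bp) has a twin on Y. It had 6, 1, 7, 3 and 6 reads, and the Y row at 240637 to 240779, also 142 bp and outside the 206, had 6, 1, 4, 9 and 1. Both lie near the short-arm tip, in the pseudoautosomal region that X and Y share, so the sequence of a read may not assign it to either row. The order of the X row alone can thus reflect how reads were placed, whereas the sum of the pair does not depend on it. In RPM the X row was highest in asynchronous cells at 0.189, close to S at 0.184 and M at 0.186. Its G2 ratio to asynchronous cells was 0.322 (0.0520 to 1.51). The pair had 12, 2, 11, 12 and 7 reads, or 0.378, 0.0718, 0.289, 0.243 and 0.217 RPM, and its G2 ratio was 0.643 (0.264 to 1.57).

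**Figure D2:**
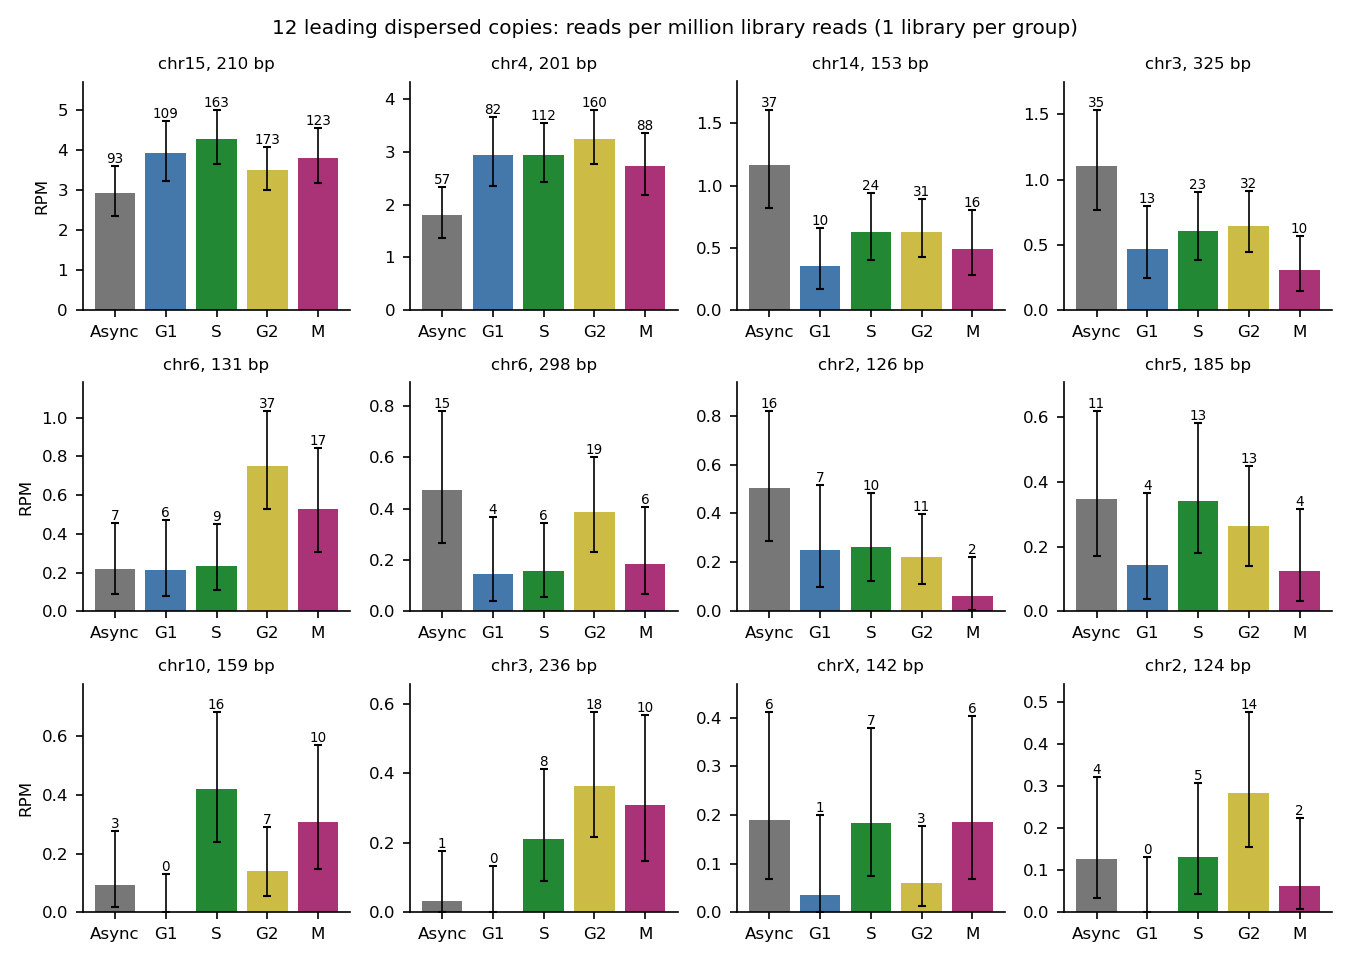
RPM (vertical axes, each from 0) of the 12 dispersed copies with the highest mean RPM in asynchronous, G1, S, G2 and M libraries; bars are 1 library each, lines are exact 95% Poisson intervals and the numerals over the bars are reads. The chr15 and chr4 copies are lowest in asynchronous cells, the chr14, 325 bp chr3, 298 bp chr6, 126 bp chr2, chr5 and X copies are highest there, and the 131 bp chr6 copy reaches 37 reads in G2.

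Summed over all 100 dispersed copies these differences largely cancelled. Relative to the asynchronous library, G1 was at 0.962 (0.808 to 1.145), S at 1.18 (1.01 to 1.38), G2 at 1.20 (1.04 to 1.39) and M at 1.01 (0.856 to 1.19). With reads divided by 2 the intervals of S (0.9497 to 1.47) and G2 (0.974 to 1.48) held 1. From stage to stage the ratio was 1.23 for S to G1 (1.04 to 1.44), 1.01 for G2 to S (0.889 to 1.16), 0.844 for M to G2 (0.730 to 0.974) and 0.953 for G1 to M (0.801 to 1.13). The intervals of S to G1 (0.976 to 1.55) and M to G2 (0.686 to 1.04) also held 1 with reads divided by 2. The 2 leading copies decided these sums, and a split into these 2 and the other 98 was made after the values were seen.

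The other 98 copies followed a different order. They had 138, 52, 133, 203 and 85 reads, or 4.35, 1.87, 3.49, 4.11 and 2.63 RPM. In their sum G1 and M were low, and asynchronous cells, S and G2 were high with intervals that overlap. The ratio to asynchronous cells was 0.430 in G1 (0.306 to 0.595) and 0.605 in M (0.456 to 0.799), and neither interval held 1 with reads divided by 2. In S it was 0.804 (0.629 to 1.03) and in G2 0.946 (0.759 to 1.18). Between stages, S was 1.87-fold G1 (1.35 to 2.63), G2 was 1.18-fold S (0.942 to 1.48), M was 0.640-fold G2 (0.491 to 0.828) and G1 was 0.710-fold M (0.493 to 1.01). The chromosome 14 copy and the 325 bp chromosome 3 copy held 37 and 35 of the 138 asynchronous reads, and 16 and 10 of the 85 M reads. Single copies went both ways in M. Of the 11 short regions tested, the 2 leading ones among them, 3 were 2-fold higher and 5 lower. The counting intervals of the sum do not cover this spread between copies. The 2 leading copies stood at 1.45, 1.53, 1.43 and 1.38 times the asynchronous level in the 4 stages. Their log2 ratio exceeded that of the other 98 by 1.76 for G1 (1.20 to 2.31), 0.93 for S (0.48 to 1.38), 0.59 for G2 (0.18 to 1.01) and 1.19 for M (0.70 to 1.68). A factor common to a whole library cancels in this difference.

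**Figure D3:**
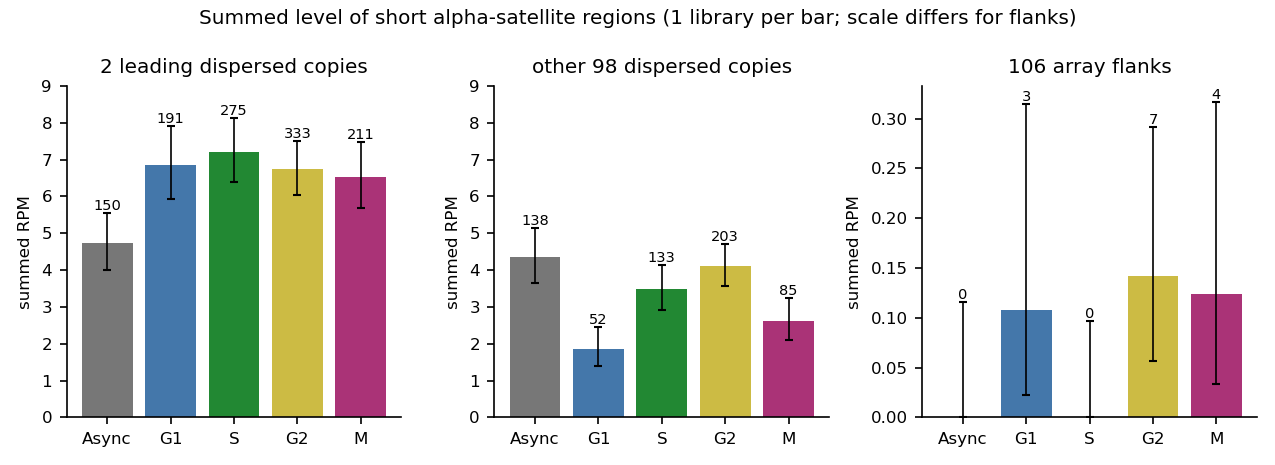
Summed RPM (vertical axes from 0, with a smaller scale for the flanks) of the 2 leading dispersed copies, the other 98 dispersed copies and the 106 array flanks in each library, with exact 95% Poisson intervals and read numbers over the bars. The other 98 copies stand at 1.87 RPM in G1 and 2.63 in M against 3.49 to 4.35 in the remaining libraries, and the flanks at 0 reads in asynchronous cells and S.

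For single copies a 2-fold difference was read only where the 2 libraries had at least 10 reads together, on reads + 0.5 per library read. Among all rows off the Y chromosome that met this minimum, 11.6% were 2-fold higher and 18.6% lower in G1 than in asynchronous cells. Of the 8 short regions tested, 0 were higher and 4 lower: those on chromosomes 14, 3 (325 bp), 6 (298 bp) and 5. No test was made, as each group had 1 library. In S, with a background of 8.05% higher and 13.8% lower, 1 of 10 was higher (chromosome 10) and 1 lower (chromosome 6, 298 bp). In G2 the background was 9.57% higher and 25.5% lower, and 3 of 12 were higher (chromosome 3, 236 bp, chromosome 6, 131 bp, and chromosome 2, 124 bp), with 1 lower (chromosome 2, 126 bp). In M 21.6% of all rows were higher and 11.7% lower. Of 11 short regions 3 were higher (chromosome 3, 236 bp, chromosome 10 and chromosome 6, 131 bp) and 5 lower (chromosomes 2, 126 bp, 3, 325 bp, 5, 6, 298 bp, and 14). Counts of at most 3 in S and G2 are too few to be set against the background. The lower calls were 4 of 8 in G1 and 5 of 11 in M, beside backgrounds of 18.6% and 11.7%. The 4 copies lower in G1 were also lower in M, against the same asynchronous library, so these are not 2 separate results. All 5 met the minimum by their asynchronous reads alone (11 to 37 reads), and such a selection favours lower calls. Of the longer rows tested, 12 of 78 were lower in G1, and in M 8 of 100 were lower and 21 higher. Even read numbers, which arise when both mates of a pair are counted, made up 11 of 13 dispersed copies with reads in M and 3 of 13 in asynchronous cells. Among all rows off the Y chromosome with reads they made up 71.3% in M and 55.6% in asynchronous cells. A higher share in M was thus not particular to these copies. The part of even read numbers in the M values was not tested.

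In G2 the ratios of the dispersed copies and of all longer rows differed. The 1321 rows of 1 kb or longer stood at 0.724 of asynchronous cells in G2 (0.703 to 0.744), against 1.20 for the dispersed copies. The difference of the log2 ratios was 0.73 (normal 95% interval 0.52 to 0.94), and 0.39 (0.07 to 0.70) when the 2 leading copies were left out. In S the difference was 0.34 (0.11 to 0.56) with the 2 leading copies and -0.22 (-0.57 to 0.13) without them. In M it was 0.30 (0.06 to 0.54) with them and -0.44 (-0.83 to -0.05) without, and in G1 -0.076 (-0.33 to 0.17) with them and -1.24 (-1.70 to -0.78) without. The M interval with them held 0 after dividing reads by 2 (-0.039 to 0.63). Chromosomes 2, 13 and 21 hold most reads of the longer rows. Without these chromosomes the difference for all 100 copies was -0.23 in M (-0.48 to 0.02) and 0.67 in G2 (0.45 to 0.90). Against the 201 longer rows that are themselves beyond 1 Mb from an array, which had 449 reads in asynchronous cells and 437 in G2, the difference was 0.72 in S (0.43 to 1.02) and 0.94 in G2 (0.65 to 1.22). It was -0.0048 in M (-0.30 to 0.29). Without the 2 leading copies the difference from these 201 rows was -1.45 for G1 (-1.94 to -0.95) and 0.17 for S (-0.23 to 0.56), and 0.60 for G2 (0.23 to 0.96) and -0.74 for M (-1.18 to -0.31). Against the longer rows without chromosomes 2, 13 and 21 the other 98 were at 0.33 in G2 (0.0074 to 0.66) and -1.32 in G1 (-1.79 to -0.85). After dividing reads by 2 the G2 intervals of the other 98 held 0 against all longer rows (-0.058 to 0.83) and against those without the 3 chromosomes (-0.13 to 0.79), and so did the M interval against all longer rows (-0.996 to 0.11). Against the 8 solitary longer rows, a comparison chosen after the values were seen, the G2 difference was 0.45 for all 100 copies (0.10 to 0.79, and -0.041 to 0.94 with reads divided by 2) and 0.11 for the other 98 (-0.31 to 0.53). There the other 98 stood at -1.26 in G1 (-1.81 to -0.70) and -0.82 in M (-1.31 to -0.33). The G1 value of the other 98 was thus lower than that of each of these groups, with reads divided by 2 as well, whereas their higher G2 value did not hold throughout. These comparisons share the reads of the 98 and the same 2 libraries, and the groups overlap, so they are not separate results. The 2 copies left out after the values were seen stood at 1.45 in G1, which lowers the remainder. With all 100 copies the G1 interval held 0 against each group. The comparison with array flanks that had been planned could be made for steps between libraries with flank reads alone. It gave a log2 difference of -0.049 for M to G2 (-1.83 to 1.73), which 7 and 4 flank reads leave undecided, and 0.13 for G1 to M (-2.04 to 2.30).

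**Figure D4:**
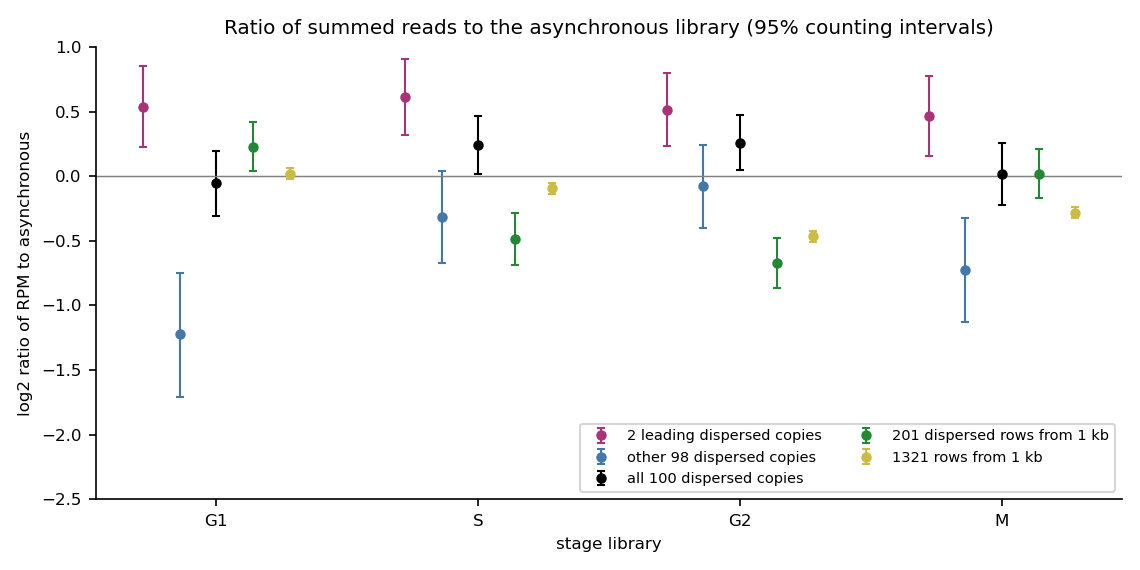
Log2 ratio of summed reads per library read to the asynchronous library (vertical axis) in G1, S, G2 and M for the 2 leading copies, the other 98, all 100 dispersed copies, the 201 dispersed rows from 1 kb and the 1321 rows from 1 kb, with exact conditional 95% intervals. In G1 the 2 leading copies lie at 1.45-fold and the other 98 at 0.430-fold, and in G2 they lie at 1.43-fold and 0.946-fold beside 0.724-fold for all longer rows.

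Few reads lay near the length bound, and more lay near the distance bound. Rows of 900 to 999 bp numbered 14, with 2 reads in all, and rows of 1000 to 1099 bp numbered 16, also with 2. Short rows between 0.5 and 1 Mb from an array numbered 28, with 7 reads, and those between 1 and 2 Mb numbered 14, with 50 reads, all in the 298 bp chromosome 6 copy, against 14 reads in all flanks. Of the 206 regions 3 begin or end at a whole multiple of 1 Mb, where the table cuts longer stretches, so their length is that of a cut piece. They had 0 reads.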

How the data were processed

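Per the labels' protocols, EU-labelled RNA of RPE1 cells was captured with a Click-iT kit, and both ends of each fragment were read over 150 nt. The deposited table holds RPKM, that is reads per kilobase and per 1000000 library reads, for 1559 regions. Bowtie2, fastp, bedtools and deepTools are named by the submitters' processing notes, and the builds are T2T-CHM13 and hs1. Versions, the placing of multiply mapping reads and the counting of overlaps were not given in the sources used here. RPKM times length (end minus start) was a whole number of reads for 100% of values within 1e-06 reads, which gave reads and library totals. The depth of the 5 libraries is given with the results. No gene annotation or sequence of this build was used here, so genes around the copies are not named.

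Sums were compared as RPM with exact 95% intervals, differences of log2 ratios with normal intervals, all for counting error only. No test was made with 1 library per group. Beside a count of 0 stands the level that 3 reads would give. The regions named are the 12 dispersed copies and 8 array flanks with most reads, and the 3 highest and 3 lowest ratios per stage; the flanks, with at most 4 reads each, are given as counts. The thirteenth copy and the multiples of 1 Mb were added after values were seen. The set, its division and the comparisons were chosen with earlier results of these data known. Functions were tested on simulated data. The work used scipy 1.17.1, numpy 2.4.6, pandas 2.3.3, matplotlib 3.10.9 and Python 3.11.15.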

Additional observations from a re-analysis of the deposited data

How the results depend on the processing

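No paired analysis was possible because each group had 1 library. Of 134 alternative ratios of summed reads 112 stayed within the counting interval of the reported value. Some of the settings could not move a ratio, so this share does not measure stability. Dividing reads by 2 changes the interval alone, and the rows cut at multiples of 1 Mb held 0 reads. Log2 ratios of the dispersed copies to asynchronous cells in G1, S, G2 and M were -0.056, 0.24, 0.26 and 0.015, and steps S to G1, G2 to S, M to G2 and G1 to M were 0.30, 0.019, -0.25 and -0.070. Leaving out the 2 leading copies, chosen after seeing the data, gave -1.22, -0.32, -0.080, -0.72, 0.90, 0.24, -0.64 and -0.49, so S and G2 reversed. Leaving out the leading copy gave -0.35 for G1 and -0.46 for M to G2, and leaving out 5 gave -1.17 for G1, -0.52 for M, 1.29 for S to G1, -0.65 for G1 to M and -0.68 for M to G2. Relative to alpha-satellite reads, G2 was at 0.70, M at 0.29, G2 to S at 0.37 and G1 to M at -0.36. With regions below 2000 bp, which take in longer dispersed rows, M was at 0.29, S to G1 at 0.043 and G2 to S at 0.21.

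The difference from the rows of 1 kb or longer in log2 ratio changed to -0.37 in G1 without the leading copy. Without the 2 leading copies it was -1.24, -0.22, 0.39 and -0.44 in the 4 stages. Against dispersed longer rows it was 0.72 in S and -0.0048 in M, against the 8 solitary ones S, G2 and M stood at 0.74, 0.45 and -0.083, and without chromosomes 2, 13 and 21 it was -0.23 in M. The difference from flanks for M to G2 was 1.74 with regions below 500 bp. With a bound of 2 Mb the flanks took in the 298 bp chromosome 6 copy and stood at 0.472 RPM (asynchronous), 0.158 (S) and 0.527 (G2). At 0.5 Mb they stood at 0 in G1, and below 500 bp at 0.0309 in M. The counts past 2-fold, 4, 2, 4 and 8 in the 4 stages, were 2 of 5, 1 of 7, 2 of 8 and 4 of 6 tested with a minimum of 20 reads (26.3%, 11.7%, 28.3% and 17.7% of all rows). With a minimum of 1 they were 12 of 17, 6 of 16, 9 of 21 and 13 of 17, against 61.4%, 61.2%, 59.9% and 60.3% of all rows, and at 1.5-fold 6 in S and 8 in G2. Depth limits single copies: 8 to 12 of the 206 regions had 10 reads in a pair of libraries.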
